A study of Mus musculus with 5 samples.

Results

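The genes described here are 10 canonical Wnt feedback targets, chosen by symbol from the 53927 genes of the deposited table: Axin2, Nkd1, Znrf3, Rnf43, Notum, Lgr5, Tcf7, Lef1, Sp5 and Ccnd1. RNA was sequenced from primary nephron progenitor cells of C57BL/6J mouse embryos, collected after 1 passage. The cells were Dis3l2-/- (KO, 3 libraries) or Dis3l2+/+ (WT, 2 libraries), and Dis3l2 encodes an exoribonuclease that degrades uridylated RNA. The removed part of Dis3l2 and the embryos or litters behind the libraries are not named in the labels, so p-values here measure only library-to-library spread, which may be technical. Of the 10 genes, 6 reached the level needed for testing, 3 fell below it with 8 to 60 reads over the 5 libraries together and 1 had none, and none of the 6 differed between genotypes beyond the spread between libraries.

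Canonical Wnt signalling starts when a Wnt ligand binds a Frizzled receptor and an Lrp co-receptor. The destruction complex then stops degrading beta-catenin, which enters the nucleus and activates target genes with TCF/LEF factors. Several of those targets code for proteins that dampen the same pathway, so their RNA is widely used as a readout of its activity. In the embryonic kidney Wnt9b from the ureteric epithelium acts on nephron progenitors, where beta-catenin takes part in both renewal and the start of differentiation. The culture protocol cited in the labels is known for a medium that contains a GSK3 inhibitor, which stabilises beta-catenin. The labels do not list the medium themselves, and they give 1 protocol for both genotypes.

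The promoters of Sp5 and Axin2 are printed because Sp5 had no read in any library although its promoter held 2 TCF/LEF motifs, and Axin2 was readily detected with none in the same window. Both sequences are the 250 bases before the RefSeq start on GRCm38.p6, 5′ to 3′, with motif matches in capitals. The Sp5 window is chr2:70474673-70474922 on the plus strand, and the Axin2 window is chr11:108920099-108920348 on the plus strand.
Sp5: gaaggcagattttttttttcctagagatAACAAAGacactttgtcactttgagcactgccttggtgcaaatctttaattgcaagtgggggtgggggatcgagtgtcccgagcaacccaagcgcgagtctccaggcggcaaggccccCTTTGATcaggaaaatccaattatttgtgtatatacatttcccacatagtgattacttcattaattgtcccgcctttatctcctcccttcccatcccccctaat
Axin2: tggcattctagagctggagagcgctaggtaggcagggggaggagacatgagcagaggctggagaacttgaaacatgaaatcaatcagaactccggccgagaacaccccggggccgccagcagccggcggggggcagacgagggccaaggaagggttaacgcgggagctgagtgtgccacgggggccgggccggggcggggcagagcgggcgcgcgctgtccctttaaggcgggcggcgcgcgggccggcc
The motifs searched were CTTTGAA or CTTTGAT or CTTTGTA or CTTTGTT, each on both strands. In the Sp5 promoter AACAAAG began 222 bases and CTTTGAT 104 bases before the start. RefSeq promoters were found for 6 of the 10 genes, with 11 windows in all, and besides Sp5 only the window of an internal start of Lef1 held a match. Over all 32851 promoter windows of the same length 14.8% held at least 1 match and 1.43% held 2 or more. A match describes letters in this window and not a binding site, and sites outside the window were not searched.

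The libraries held 49.25 M, 32.2 M and 19.6 M assigned reads in KO replicates 1, 2 and 3, and 22.3 M and 28.3 M in WT replicates 1 and 2, a depth recovered from the spacing of low values. Levels are given as deposited, as CPM, the count scaled to an effective library size. Dis3l2, which checks the labels, had 6.50, 4.93 and 4.70 CPM in KO and 16.0 and 12.2 CPM in WT. The progenitor regulators Six2, Eya1, Sall1 and Wt1 were expressed in all 5 libraries, with Six2 between 18.6 and 31.9 CPM, whereas the progenitor factor Pax2 stayed at or under 0.66 CPM. Xist stood at 872 and 765 CPM in KO replicates 1 and 2 and 951 CPM in WT replicate 2, but at 0.52 CPM in KO replicate 3 and 0.93 CPM in WT replicate 1. These are bulk libraries, so fewer cells of a type and less RNA per cell cannot be told apart.

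Axin2 (ENSMUSG00000000142.15, chr11:108920349-108950783, plus strand, GRCm38) encodes a scaffold of the destruction complex and is the most widely used Wnt readout. It had 6.69, 3.93 and 2.54 CPM in KO replicates 1, 2 and 3, against 4.22 and 2.84 CPM in WT replicates 1 and 2. KO replicate 1 was the highest of all libraries and KO replicate 3 the lowest, so the genotypes overlapped. The means were 4.39 ± 2.11 CPM in KO (SD, n = 3) and 3.53 ± 0.98 CPM in WT (SD, n = 2). On the log2(CPM + 1) scale KO over WT came to 0.19 ± 0.34 (log2 fold change ± standard error), with a 95% interval of -0.61 to 1.00 (limma, adjusted p = 1). It was -0.10 without KO replicate 1 and -0.03 without WT replicate 2. The authors' deposited table gives Axin2 a log2 fold change of 0.33 and an FDR of 1.

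Nkd1 (ENSMUSG00000031661.12, chr8:88521354-88594884, plus strand) encodes an inhibitor that binds Dishevelled. It had 14.9, 25.1 and 18.0 CPM in KO and 12.9 and 21.9 CPM in WT. Within each genotype the library numbered 1 was the lowest and the library numbered 2 the highest, and the groups overlapped. Its means were 19.3 ± 5.26 CPM in KO (SD, n = 3) and 17.4 ± 6.38 CPM in WT (SD, n = 2). The log2 fold change was 0.16 ± 0.29 (SE) with a 95% interval of -0.52 to 0.84 (limma, adjusted p = 1). The sign turned without WT replicate 1 (-0.20) and without KO replicate 2 (-0.04).

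Znrf3 and Rnf43 encode membrane ubiquitin ligases that remove Frizzled receptors from the cell surface. Znrf3 (ENSMUSG00000041961.14, chr11:5276324-5444847, minus strand) had 13.15, 11.5 and 12.0 CPM in KO and 15.6 and 12.5 CPM in WT. It was the steadiest of the tested targets, with its highest library 1.35 times its lowest. KO replicate 1 lay above WT replicate 2, so the groups overlapped. The log2 fold change was -0.18 ± 0.17 (SE) with a 95% interval of -0.57 to 0.22 (limma, adjusted p = 1), and it stayed below 0 without each library in turn. On the fold scale that interval runs from 0.67 to 1.16.

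Rnf43 (ENSMUSG00000034177.15, chr11:87662722-87735539, plus strand) was at the limit of detection. It had 1, 0 and 2 reads in KO replicates 1, 2 and 3 and 0 and 5 reads in WT replicates 1 and 2, where 3 reads equal 0.0639 to 0.141 CPM depending on the library. The authors' deposited table lists a log2 fold change of -1.4 for Rnf43 with an FDR of 1, which rests on these 8 reads in all. Notum (ENSMUSG00000042988.10, chr11:120653788-120661175, minus strand) encodes a secreted enzyme that inactivates Wnt ligands by removing their lipid. It had 2, 3 and 3 reads in KO and 2 and 1 reads in WT. For neither gene was a difference between genotypes detectable at this depth.

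Lgr5 (ENSMUSG00000020140.15, chr10:115450311-115587780, minus strand) encodes a receptor for R-spondins, which prolong Wnt signals. It had 5.43, 1.81 and 2.73 CPM in KO and 4.59 and 1.33 CPM in WT. The libraries numbered 1 were the highest of each genotype, and the libraries numbered 2 the lowest. The means were 3.32 ± 1.88 CPM in KO (SD, n = 3) and 2.96 ± 2.31 CPM in WT (SD, n = 2). The log2 fold change was 0.17 ± 0.46 (SE) with a 95% interval of -0.92 to 1.27 (limma, adjusted p = 1). It was 0.80 without WT replicate 1, -0.46 without WT replicate 2 and -0.16 without KO replicate 1.

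Tcf7 (ENSMUSG00000000782.15, chr11:52252371-52283014, minus strand) encodes a TCF factor that partners beta-catenin. It had 4.31, 2.34 and 2.02 CPM in KO and 2.41 and 2.53 CPM in WT, so KO replicate 1 stood above the other 4 libraries. Its means were 2.89 ± 1.24 CPM in KO (SD, n = 3) and 2.47 ± 0.09 CPM in WT (SD, n = 2). The log2 fold change was 0.12 ± 0.27 (SE) with a 95% interval of -0.51 to 0.75 (limma, adjusted p = 1). It was -0.13 without KO replicate 1.

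Lef1 (ENSMUSG00000027985.14, chr3:131110471-131224356, plus strand) encodes the related factor that rises in many tissues when Wnt signalling is strong. It had 23, 8 and 7 reads in KO, equal to 0.49, 0.25 and 0.33 CPM, against 1 and 21 reads in WT, equal to 0.05 and 0.74 CPM. The WT libraries were the lowest and the highest of all, and the KO libraries lay between them. Their exact 95% Poisson intervals, which cover counting error only, were 0.001 to 0.258 CPM in WT replicate 1 and 0.456 to 1.13 CPM in WT replicate 2 and did not overlap. Lef1 missed the filter of 0.5 CPM in at least 2 libraries and was not tested. Sp5 (ENSMUSG00000075304.2, chr2:70474923-70477729, plus strand), a zinc finger factor gene activated by beta-catenin in many embryonic cells, had 0 reads in every library. At a one-sided 95% level a count of 0 allows up to 3 reads, between 0.0639 CPM in KO replicate 1 and 0.141 CPM in KO replicate 3.

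Ccnd1 (ENSMUSG00000070348.5, chr7:144929931-144939925, minus strand) encodes cyclin D1, which drives entry into the cell cycle and is controlled by several pathways besides Wnt. It had 4.39, 22.4 and 17.8 CPM in KO replicates 1, 2 and 3, against 5.43 and 26.9 CPM in WT replicates 1 and 2. Both libraries numbered 1 were far below the other 3, and the genotypes overlapped over nearly their whole range. The highest library was 6.13 times the lowest. Counting error was small beside this gap, with exact 95% Poisson intervals of 4.49 to 6.50 CPM in WT replicate 1 and 25.0 to 28.9 CPM in WT replicate 2. The means were 14.9 ± 9.36 CPM in KO (SD, n = 3) and 16.2 ± 15.2 CPM in WT (SD, n = 2). The log2 fold change was -0.01 ± 0.78 (SE) with a 95% interval of -1.87 to 1.86 (limma, adjusted p = 1). It was -1.06 without WT replicate 1, 1.05 without WT replicate 2 and 0.65 without KO replicate 1. The interval spans 0.27-fold to 3.63-fold, so changes of that size could not be detected in this comparison. Between the libraries numbered 1 KO minus WT was -0.255, and between those numbered 2 it was -0.254. With replicate number as a block in the fit the log2 fold change was -0.25 ± 0.11 (SE, limma, adjusted p = 0.273). That fit rests on those pairs, and the labels do not say what the numbers share. Exons of Ccnd1 and of Oraov1 on the other strand share 1100 bases, and the strand setting of the counting step is not stated. Oraov1 had 14.8, 14.4 and 13.4 CPM in KO and 11.7 and 13.4 CPM in WT, so both libraries numbered 1 were close to the others. The antisense genes that overlap exons of Axin2, Lef1 and Notum had at most 0.05 CPM.

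**Figure D1:**
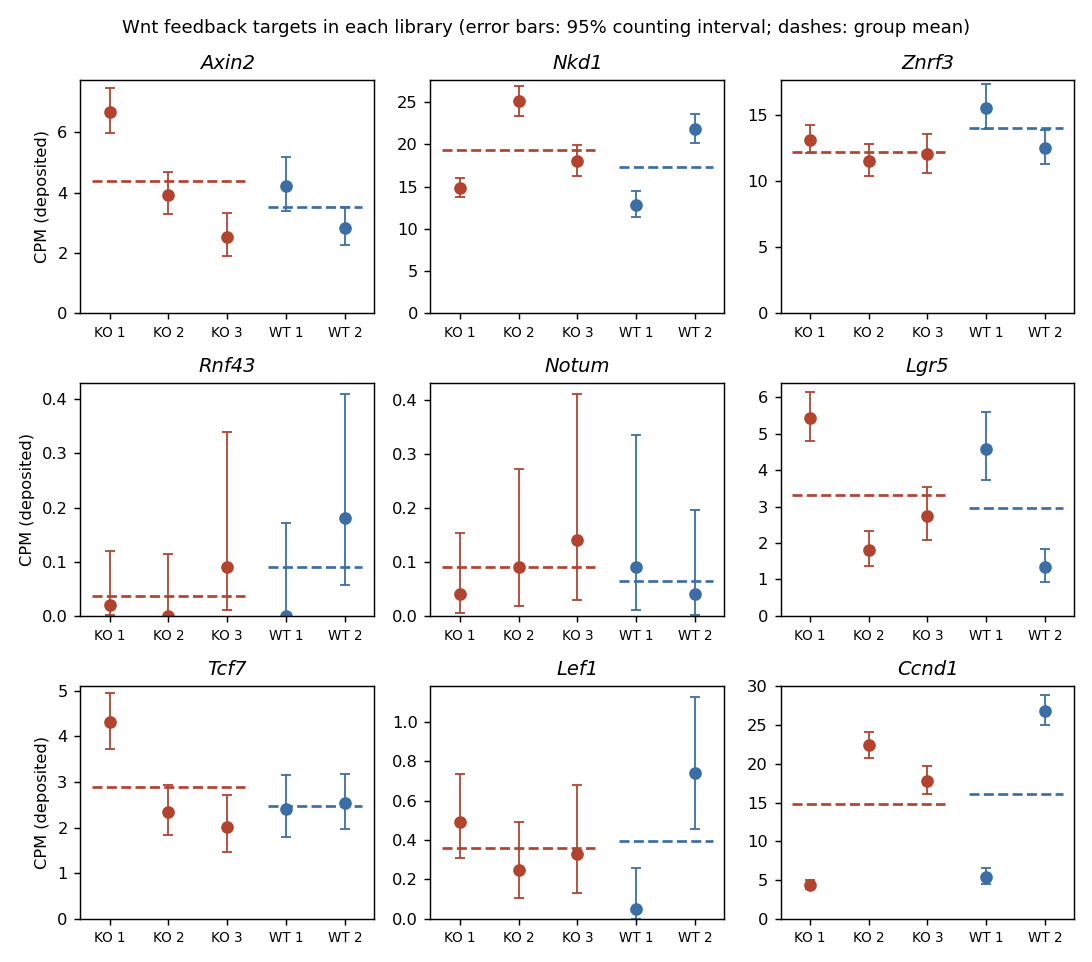
Deposited CPM of 9 of the 10 targets in each library, KO in red and WT in blue, with exact 95% Poisson counting intervals as error bars and dashed lines at the genotype means; Sp5, at 0 throughout, is left out. The genotypes overlap in each panel, and Ccnd1 is near 5 CPM in both libraries numbered 1 and above 17 CPM in the other 3.

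Set per kb of exon in GENCODE M21, the mean level over the 5 libraries was 4.07 CPM per kb for Nkd1 and 3.27 CPM per kb for Ccnd1. It was 1.64 CPM per kb for Znrf3, 1.04 CPM per kb for Tcf7, 0.734 CPM per kb for Axin2 and 0.310 CPM per kb for Lgr5. The ranges of neighbours in this order overlapped across libraries. Within each of the 5 libraries Znrf3 lay above Tcf7, Tcf7 above Axin2 and Axin2 above Lgr5. Nkd1 lay above Ccnd1 in 4 of 5 libraries and Ccnd1 above Znrf3 in 3 of 5, so these neighbours had no fixed order. Lef1 followed at 0.042 CPM per kb, and its highest library, at 0.084 CPM per kb, lay below the lowest library of Lgr5, at 0.130 CPM per kb. Notum had 0.033 and Rnf43 0.009 CPM per kb.

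Among the 6 tested genes 4 were higher and 2 lower in KO, with a median log2 fold change of 0.14, beside 52.9% of genes higher and a median of 0.01 over all 14884 genes tested. None of the 6 passed at an adjusted p under 0.05 (limma), and none had an unadjusted p under 0.05. Over all genes 0.00672% passed, a single gene, the vault RNA Vaultrc5, chosen for naming with its values known. At an unadjusted p under 0.05 there were 413 genes, or 2.77%. None of the 6 had KO libraries that all lay on 1 side of both WT libraries. Over all genes tested the share was 14.8% (7.85% with KO higher and 6.98% with KO lower), and 6 genes are too few to set against it. The untested targets overlapped as well, at few reads or none. Within the libraries with Xist (KO replicates 1 and 2, WT replicate 2) the median log2 fold change of the 6 was 0.12, and within those without it (KO replicate 3, WT replicate 1) it was -0.26. For Tcf7 these differences were 0.26 with Xist and -0.17 without, for Nkd1 -0.17 and 0.46, and for Znrf3 -0.02 and -0.35. An exact permutation test of 3 against 2 libraries cannot go below a two-sided p of 0.1, so single genes cannot be called that way.

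**Figure D2:**
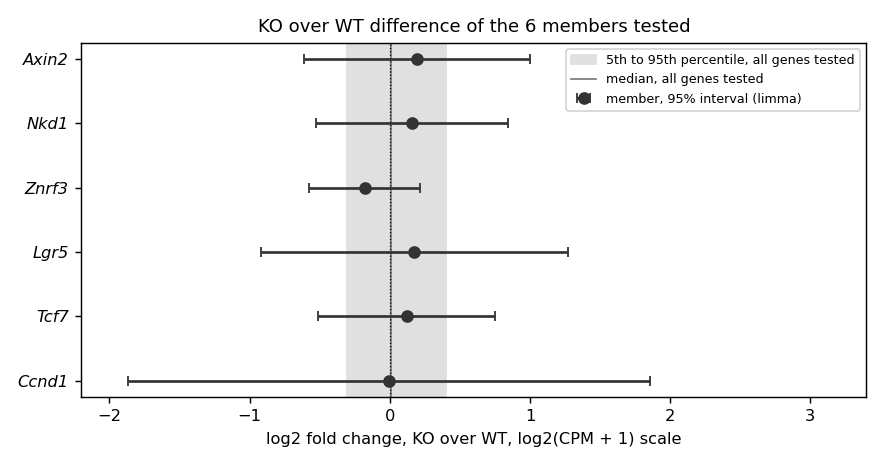
Log2 fold change of KO over WT with its 95% limma interval for the 6 tested targets, beside the 5th to 95th percentile (-0.30 to 0.40) and the median of all 14884 genes tested. Each interval includes 0, and that of Ccnd1 is the widest, at -1.87 to 1.86.

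The targets differed widely in how much they varied within a genotype. The pooled within-genotype SD of log2(CPM + 1) was 1.27 for Ccnd1 and 0.72 for Lgr5, above 99.8% and 98.2% of the 14884 genes. It was 0.49 for Axin2, 0.42 for Nkd1 and 0.36 for Tcf7, above 93.4%, 89.6% and 84.5% of genes. Znrf3 had an SD of 0.14, above 30.2% of genes, beside a median of 0.19 over all genes. Against genes with a mean level within 1.5-fold of its own, Ccnd1 exceeded 99.7% of 2754 genes and Lgr5 97.7% of 1575. These percentiles describe the 5 libraries and carry no test.

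The targets did not share a single pattern over the libraries. Axin2, Tcf7 and Lgr5 were highest in KO replicate 1, at 0.66, 0.54 and 0.73 above their own means on the log2(CPM + 1) scale. Ccnd1 and Nkd1 were below their means in KO replicate 1 and WT replicate 1, with -1.31 and -1.05 for Ccnd1 and -0.26 and -0.46 for Nkd1. They were above their means in KO replicate 2 and WT replicate 2, with 0.81 and 1.06 for Ccnd1 and 0.46 and 0.27 for Nkd1. The distance between standardised profiles over the 5 libraries was 0.982 from Axin2 to Tcf7 and 1.47 to Lgr5, against 2.28 to Znrf3, 3.42 to Nkd1 and 3.79 to Ccnd1. KO replicate 1 is the deepest library, and it also lay at the end of the first principal component, at -36, with the other libraries between -3.8 and 24.6. The part of depth or of that library in the pattern was not tested.

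**Figure D3:**
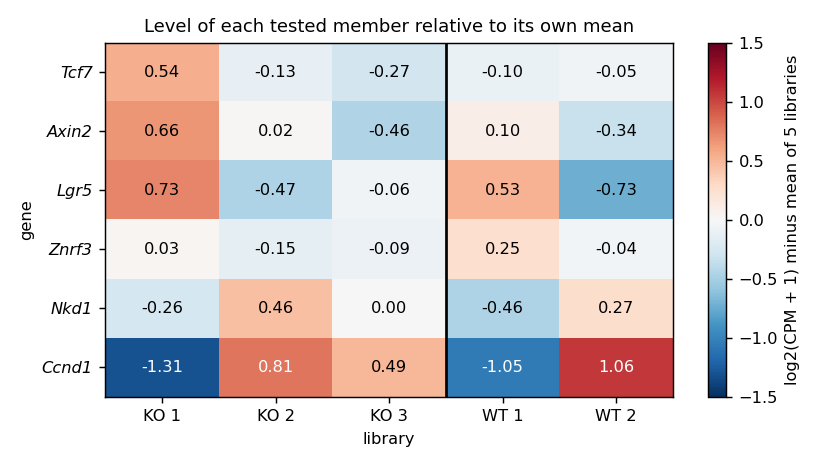
Log2(CPM + 1) of each tested target minus its own mean over the 5 libraries, with KO libraries left of the black line and WT libraries right of it; red is above and blue below the mean. Ccnd1 is at -1.31 in KO replicate 1 and -1.05 in WT replicate 1, while Axin2, Tcf7 and Lgr5 are highest in KO replicate 1.

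Among 4176 other genes averaging 5 CPM or more with an SD of at least 0.2 on the log2(CPM + 1) scale, the profile nearest to Axin2 over the 5 libraries was that of Snrpg, at a distance of 0.067. Snrpg encodes a core protein of the spliceosomal small nuclear ribonucleoproteins and had 47.2, 32.1 and 23.65 CPM in KO and 34.2 and 25.8 CPM in WT. Nespas, an imprinted noncoding RNA, followed at 0.116, then Stk11ip at 0.139. Kif18b and Cdca8, which act in mitosis, stood at 0.146 and 0.149. With 5 libraries and 4176 genes, close profiles are easily found, and no p is given.

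Ccnd1 was lowest in replicate 1 of each genotype, and the progenitor and stroma markers were set against that order with their values known. Of 12 nephron progenitor markers, 6 were higher in replicate 1 of both genotypes than in each of the other 3 libraries, and 6 had neither order. Cited1, a gene of uncommitted progenitors, had 17.1, 4.74 and 2.73 CPM in KO replicates 1, 2 and 3 and 15.2 and 1.40 CPM in WT replicates 1 and 2. Crym, a progenitor gene that depends on Wnt9b, had 10.7, 3.34 and 2.26 CPM in KO and 16.9 and 2.35 CPM in WT. Both are among the 6, whereas Six2, which maintains progenitors, had 31.9, 26.5 and 18.6 CPM in KO and 19.0 and 18.8 CPM in WT. Of 12 renal stroma markers, 4 were higher in both replicates 1 than in the other 3 libraries, 3 were lower and 5 had neither order. The share of all genes tested with either order was not computed. These marker counts therefore have no baseline and cannot be read as a trait of these cell types. Summed over the 12 nephron progenitor markers the level ran from 849 to 1035 CPM in KO and from 828 to 1054 CPM in WT. Most of that sum came from Itga8, at 356 to 471 CPM, and Eya1, at 168 to 274 CPM. It therefore hardly reflects lower genes such as Cited1 and Crym. Of the 12 progenitor markers 11 were tested, 7 of them higher in KO, and Pax2 had the lowest levels. The 12 renal stroma markers summed to 1076 to 1582 CPM in KO and 1213 to 1913 CPM in WT, mostly from Col1a1, Col3a1 and Aldh1a2. Of those 12 stroma markers 10 were tested, and Foxd1, the defining gene, stayed at or under 0.25 CPM. The part of cell makeup in the values of Ccnd1 and Lgr5 was not tested.

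Markers of other cell types were compared by their summed level. The 10 ureteric epithelium markers summed to 15.0 to 23.5 CPM in KO and 13.2 to 19.0 CPM in WT, mostly from Hoxb7 and Wnt11. The Wnt9b gene itself had at most 0.04 CPM. The 10 markers of differentiating nephrons summed to 59.4 to 72.3 CPM in KO and 54.6 to 65.9 CPM in WT. Nearly all of that came from Cdh6, Jag1 and Pax8, while Wnt4 stayed at or under 0.62 CPM and Lhx1 at or under 0.03 CPM. The 6 podocyte markers reported summed to 54.1 to 68.9 CPM in KO and 41.9 to 43.15 CPM in WT, most of it from the cell cycle inhibitor gene Cdkn1c. The 5 endothelial markers summed to 40.0 to 60.3 CPM in KO and 48.8 to 72.9 CPM in WT. Most of that sum came from Emcn and Kdr, while Pecam1 stayed at or under 0.70 CPM and Cdh5 at or under 0.78 CPM. The 5 skeletal muscle markers summed to 112 to 137 CPM in KO and 104 to 124 CPM in WT, nearly all of it from Des. Myod1 had at most 0.04 CPM, Myog at most 0.42 CPM and Actc1 at most 1.51 CPM. Of the 3 tested 2 were higher in KO, and Myl1 was lower, at 3.20, 2.18 and 3.34 CPM against 5.57 and 6.21 CPM in WT. The 5 leukocyte markers summed to 4.95 to 5.69 CPM in KO and 7.21 to 7.65 CPM in WT, with Ptprc at or under 0.11 CPM. The podocyte and leukocyte sums were therefore the 2 that did not overlap between genotypes. No marker passed over all genes (limma), and the part of these cell types in the values of the Wnt targets was not tested.

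The rest of the Wnt pathway was compared through 9 lists ordered by role, which hold 120 genes outside the feedback targets. Of these genes 118 were in the table and 86 were tested, 52 of them higher in KO, with a median log2 fold change of 0.07. None passed at an adjusted p under 0.05 and none had an unadjusted p under 0.05 (limma). For 6 genes the KO libraries were all higher than both WT libraries and for 1 all lower, together 8.1%, against 14.8% of all genes tested.

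Of 19 Wnt ligand genes 7 were tested, 4 of them higher in KO, with a median log2 fold change of 0.07. Wnt2b had 2.00, 7.67 and 6.68 CPM in KO and 1.07 and 2.77 CPM in WT, a log2 fold change of 1.07 ± 0.49 (SE, limma, adjusted p = 1). Wnt11, a ligand made by ureteric tips and acting largely outside the beta-catenin branch, averaged 8.50 ± 2.77 CPM in KO (SD, n = 3) and 5.47 ± 1.31 CPM in WT (SD, n = 2). Wnt8b had 0.75, 0.25 and 0.24 CPM in KO and 1.44 and 0.35 CPM in WT. Each of the 3 overlapped between genotypes. The ligand genes Wnt1, Wnt3a, Wnt8a and Wnt10a were at 0 in all libraries.

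Among 12 tested receptor genes 9 were higher in KO, with a median log2 fold change of 0.16. Fzd4, a Frizzled receptor, had 101, 58.0 and 64.6 CPM in KO and 51.9 and 48.5 CPM in WT, with no overlap, and its log2 fold change was 0.52 ± 0.24 (SE, limma, adjusted p = 1). Fzd1 lay the other way, with 67.7, 66.3 and 62.4 CPM in KO and 72.0 and 79.2 CPM in WT and a log2 fold change of -0.20. Fzd2 had a log2 fold change of 0.47 and overlapped. Of 5 tested R-spondin and Lgr genes 3 were higher, with a median of 0.02. Rspo2 had a log2 fold change of 0.69, Lgr4 of -0.22 and Lgr6 of 0.23, and each overlapped between genotypes.

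The secreted and membrane inhibitors had 11 tested genes, 9 of them higher in KO, with a median log2 fold change of 0.17. Sfrp2, which encodes a secreted Wnt binding protein, had 9.48, 11.8 and 8.04 CPM in KO and 3.20 and 8.04 CPM in WT. Its log2 fold change was 0.79 ± 0.34 (SE, limma, adjusted p = 1). Trabd2b, which encodes a membrane protease that cleaves Wnt ligands, had a log2 fold change of 0.83, and Sfrp1 one of 0.44. All KO libraries lay above both WT libraries for 3 of these 11 inhibitor genes, Dkk1, Frzb and Apcdd1, picked for naming with their values known, against 7.85% of all genes tested. Dkk1, a secreted antagonist of the Lrp co-receptors, had 308, 151 and 155 CPM in KO and 150 and 143 CPM in WT, so the separation in KO replicates 2 and 3 was narrow.

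Intracellular pathway genes had median differences near 0. The 16 genes of the destruction complex and Dishevelled list were all tested, 9 were higher, and the median log2 fold change was 0.01. In that list Apc2 had the smallest p and a log2 fold change of 0.33, and Csnk1d and Csnk1a1, both casein kinase genes, had 0.14 and -0.14. Of 13 genes for beta-catenin and its nuclear partners 8 were higher, with a median of 0.01. Ctnnb1, which encodes beta-catenin itself, had 436, 397 and 426 CPM in KO and 462 and 412 CPM in WT. The corepressor genes Tle2 and Tle1 had log2 fold changes of 0.44 and -0.14, and Cby1, a beta-catenin antagonist, one of 0.12.

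Other genes known as Wnt targets gave 14 tested, 6 higher and 8 lower, with a median log2 fold change of -0.02. Jun had a log2 fold change of 0.37 and was the 1 gene of this list with all KO libraries above both WT libraries, at 11.55, 19.6 and 11.7 CPM in KO and 10.3 and 10.6 CPM in WT. Nkd2, a relative of Nkd1, had 3.43, 5.58 and 9.69 CPM in KO and 6.54 and 11.4 CPM in WT, a log2 fold change of -0.51. Ephb3, a guidance receptor gene, had 0.29. Of the genes that Wnt9b induces at the start of nephron differentiation, Pax8, Jag1 and Wnt4 were tested, with log2 fold changes of 0.07, -0.20 and 0.07. Fgf8 was at 0 in all libraries and Lhx1 at or under 0.03 CPM. Of the progenitor genes that depend on Wnt9b 6 were tested, 3 of them higher, with a median of -0.01. Pla2g7 had a log2 fold change of -0.48, Crym of -0.50 and Itga8 of -0.10.

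**Figure D4:**
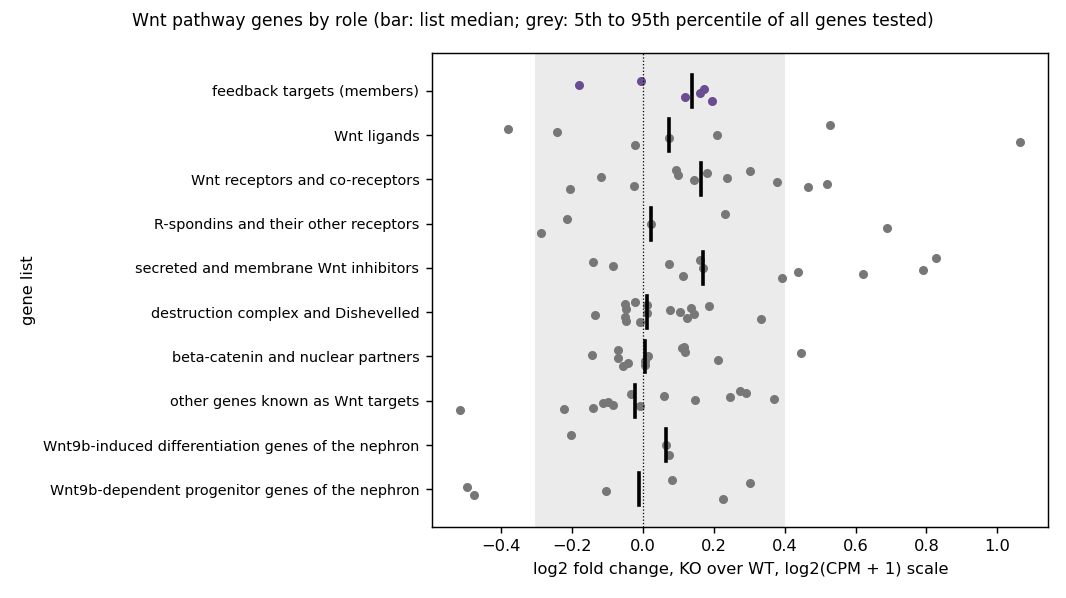
Log2 fold change of KO over WT for each tested gene of the feedback targets (purple) and of 9 Wnt pathway lists (grey), with a black bar at each list's median and grey shading over the 5th to 95th percentile of all 14884 genes tested. The list medians lie between -0.02 and 0.17, and Wnt2b is the farthest to the right, at 1.07.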

How the data were processed

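Counts behind the table came from reads aligned to mm10 with HISAT2 2.1.0 and counted with featureCounts, and were compared with edgeR 3.20.1, per the submitters' processing notes. Annotation release, strand setting and normalization method are not stated there. The deposited signal for each library is a CPM scaled to an effective size, kept to 2 decimals. The authors also deposited their own comparison, namely log2 values (fold change and mean CPM), a likelihood ratio score, and a p-value with FDR. Reads were recovered from the steps of the low values: below 100 CPM, 100% of values in each library were whole reads to within 0.0055 CPM. In the deepest library that tolerance is a sizeable part of 1 read. Of the values up to 20 reads only 45.0% to 95.4% per library lay within 0.1 read of a whole number. The lowest shares were 45.0% in WT replicate 2 and 45.5% in KO replicate 1, so they did not follow depth alone. No count model was therefore fitted, and limma was the planned test.

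KO was compared with WT by limma 3.58.1 in R 4.3.3 with its trend option on log2(CPM + 1), for the 14884 genes that reached 0.5 CPM in 2 or more libraries. P-values are two-sided with Benjamini-Hochberg adjustment over all of them, and the threshold was 0.05. Fold changes on this scale understate the change of low genes. The limma step was tested on simulated data, with the same spread for every gene before counting error. The changed genes there had higher levels than Axin2, Tcf7 and Lgr5. That test does not cover genes that vary as widely as Ccnd1 and Lgr5. All 10 gene IDs matched GENCODE M21 (GRCm38) with their version, as did 50604 of 53927 in all, and RefSeq GRCm38.p6 gave the promoters. Intervals on levels cover counting error only. Named were the 10 targets, the up to 3 genes of each pathway list with the smallest p, the 5 genes nearest to Axin2, and others where said. Genes of the marker lists, and examples such as Ctnnb1, were picked with their values known. The targets, lists and test were chosen with earlier results of these data known. Alternatives changed the pseudocount, the filter, the scaling, a replicate block, a sex term and leaving out each library. An item of the marker lists is not reported here.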

Additional observations from a re-analysis of the deposited data

Results flagged for a closer look

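Axin2, Lgr5 and Ccnd1 moved in opposite directions in libraries with and without Xist. With Xist, all KO libraries lay above the WT library for Axin2 and Lgr5 and below it for Ccnd1, and without Xist the KO library lay on the other side. The KO over WT difference was 0.68 with Xist and -0.56 without for Axin2, 0.87 and -0.58 for Lgr5, and -1.31 and 1.55 for Ccnd1 on the log2(CPM + 1) scale. The difference between them was 1.24 for Axin2, 1.45 for Lgr5 and -2.86 for Ccnd1, and no such interaction passed (limma, adjusted p = 0.8025 for each of the 3). Over all 14884 genes 42.4% showed the same kind of opposition, against 3 of the 6 tested targets. By mean difference Tcf7 (0.255 with Xist and -0.175 without) and Nkd1 (-0.169 and 0.457) changed sign too. For both, KO replicates 1 and 2 lay on either side of WT replicate 2, so they are not among the 3. Each set holds 1 WT library, and the set without Xist 1 KO library, and the sets mix replicate numbers. Sex, replicate number and library therefore cannot be told apart. Between libraries of the same number, KO minus WT had the same sign in both pairs for each of the 3 genes. For numbers 1 and 2 it was 0.56 and 0.36 for Axin2, 0.20 and 0.27 for Lgr5, and -0.255 and -0.254 for Ccnd1. Nkd1 (0.195 and 0.191) and Znrf3 (-0.229 and -0.11) also kept their sign, whereas Tcf7 (0.639 and -0.08) did not. The share of all genes with the same sign in both pairs was not computed, so these signs have no baseline. A part of replicate number was not tested.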

How the results depend on the processing

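None of the targets passed under any of the 13 alternatives with limma; the smallest adjusted p was 0.1658, for Axin2 with the replicate block. The median log2 fold change of the measured targets, 0.14, ran from -0.11 to 0.21 when each library was left out, turning negative without KO replicate 1, and was -0.26 in the libraries without Xist. Leaving out each library gave -0.10 to 0.46 for Axin2, -0.13 to 0.28 for Tcf7, -0.20 to 0.52 for Nkd1, -0.46 to 0.80 for Lgr5 and -1.06 to 1.05 for Ccnd1. Ccnd1 was also 0.026 with each library rescaled to a common sum. Znrf3 stayed between -0.33 and -0.03. Over all genes 1 passed, but 0 did with a pseudocount of 5, no filter, median-of-ratios size factors or a sex term, and 0 to 8 when each library was left out. With the replicate number as a block 390 passed, with a median of 0.21 for the targets, and Axin2 had a log2 fold change of 0.46 with an unadjusted p of 0.0216. Deviations from genotype means correlated at 0.414 between the libraries numbered 1 and 0.537 between those numbered 2 over 14884 genes. With only 2 WT libraries their deviations mirror each other, so pairs of unlike number gave -0.414 and -0.537 by construction. The deviations of the KO libraries are also tied to each other, so the correlations are not independent agreements. No label says what the numbers share, and there are 2 such pairs, so the block is not the main comparison. KO replicate 3 has no WT library of its number and adds nothing to the block estimates. Each target's log2 fold change with the block therefore equals that without KO replicate 3, and the 2 settings are not separate results. The causes were not tested. Rnf43, Notum and Sp5 are limited by depth.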
